A study of Trichoderma reesei with 17 samples.

Results

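Polyketide synthases (PKS), nonribosomal peptide synthetases (NRPS), enzymes of terpene synthesis, prenyltransferases and O-methyltransferases were followed by RNA sequencing in Trichoderma reesei, a filamentous fungus used to make cellulases. The genes were chosen by the wording of the annotation that accompanies the counts, namely every Protein ID whose description holds polyketide, PKS, NRPS, nonribosomal, non-ribosomal, terpene, prenyltransferase or O-methyltransferase. This gave 34 of the 9129 genes in the count table. They comprise 9 PKS, 9 NRPS, 2 PKS-NRPS hybrids, 2 genes with a terpene term, 7 prenyltransferases and 5 O-methyltransferases. The rule reads words and not pathways, so it also takes enzymes of general metabolism, among them a subunit of the protein farnesyltransferase (109078), an enzyme of ubiquinone synthesis (123758) and a protein repair methyltransferase (122131). Of the 34 genes, 33 reached at least 10 reads in at least 2 libraries and were tested. The gene left out is a putative UbiA prenyltransferase (111048), with between 0 and 5 reads per library. The tested member with the fewest reads is the PKS 65116, with 154 reads in all and 10 or more in 6 libraries.

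A PKS builds a carbon chain from acyl units such as malonyl-CoA, and an NRPS joins amino acids into a peptide without the ribosome. Both carry the growing product on a carrier domain that a phosphopantetheinyl transferase must first activate. Terpene synthases cyclise isoprenoid diphosphates, prenyltransferases attach isoprenoid chains, and O-methyltransferases decorate the products with methyl groups. In filamentous fungi the genes of one such product often lie side by side, and species of Trichoderma are known for long antibiotic peptides, siderophores that bind iron, and polyketide pigments.

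The parental strain QM9414 and a mutant of it that lacks xyr1 (Δxyr1) were compared. XYR1 is the main activator of cellulase and xylanase genes in this fungus. Both strains were grown at 28 °C and 200 rpm with 1% cellulose, 2% glucose or 1 mM sophorose, a glucose disaccharide that induces cellulases, and the RNA of the time points of a culture was pooled. In cellulose, QM9414 was harvested after 24, 48 and 72 h and Δxyr1 after 8 and 24 h, so strain and culture time cannot be told apart there. In sophorose both strains were harvested after 2, 4 and 6 h, and in glucose after 24 and 48 h. For Δxyr1 a pre-culture in glycerol is also described, before the cellulose cultures in one source and before the sophorose cultures in another. The sophorose cultures were thus far shorter than the others in both strains, and carbon source and culture time cannot be told apart either. There were 3 libraries per group except QM9414 in glucose, with replicates 1 and 3, from separate cultures. The authors had left out replicate 2 of that group, which they judged not informative. The labels give no sequencing batch, and a batch that followed strain could not be told apart from strain.

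Each library held between 7014100 and 29056712 reads in genes, with a median of 14468110. The deleted gene, xyr1, stood at 622 ± 76.6 CPM (CPM are read counts scaled to a common library size with TMM factors, mean ± SD, n = 3) in QM9414 in cellulose and 2560 ± 315 CPM (n = 3) in sophorose, against 10.9 ± 3.36 CPM (n = 3) and 86.2 ± 6.51 CPM (n = 3) in Δxyr1. In glucose it was low in both strains, at 9.61 ± 0.569 CPM (n = 2) and 3.72 ± 2.42 CPM (n = 3), and the difference was not called. A single gene took 35% of all reads in Δxyr1 sophorose replicate 3, 24.9% in Δxyr1 glucose replicate 1 and 18.4% in Δxyr1 glucose replicate 2, against 10.1% at most in the other libraries. Their TMM factors were 0.528, 0.646 and 0.69. Replicate 3 of Δxyr1 in sophorose also held the highest level of both large NRPS genes, 123786 and 23171, in its group. A member's value below is given without a library where leaving out that library ends its call or moves its fold by over 1.5 times.

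The members took a far larger share of the reads in cellulose and sophorose than in glucose. Their summed level lay between 1420 and 1980 CPM in the 5 glucose libraries of both strains, between 3190 and 6430 CPM in the 6 sophorose libraries and between 5700 and 8700 CPM in the 6 cellulose libraries. The PKS 82208 and the NRPS 123786 and 23171 made up between 59.6 and 81.5% of that sum in cellulose and sophorose, and between 5.73 and 7.54% in glucose. The other 30 tested members summed to between 1290 and 2120 CPM in every library. These sums are scaled with TMM factors, so they are not plain shares of reads, and they grow with gene length. Per kilobase of gene span, the highest means over all libraries were those of 76247, an O-methyltransferase family protein, at 153 CPM per kb, 82208 at 151 CPM per kb and 109078, the beta subunit of the farnesyltransferase that modifies CaaX proteins, at 133 CPM per kb. These means join groups in which the genes went opposite ways. In cellulose 82208 stood at 351 CPM per kb in QM9414 and 496 CPM per kb in Δxyr1, against 159 and 66.8 CPM per kb for 76247. Over all libraries the highest NRPS was 81014 at 42.0 CPM per kb, through 84.9 and 88.5 CPM per kb in glucose, the highest gene with a terpene term was 58264 at 46.7 CPM per kb, and the higher of the hybrids was 105864 at 8.21 CPM per kb. The large NRPS 123786 and 23171, whose genes span 50787 and 69518 bp, reached 23.3 and 13.3 CPM per kb. In QM9414, 123786 was above 81014, at 45.0 against 18.8 CPM per kb in cellulose and 38.5 against 20 CPM per kb in sophorose.

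**Figure D1:**
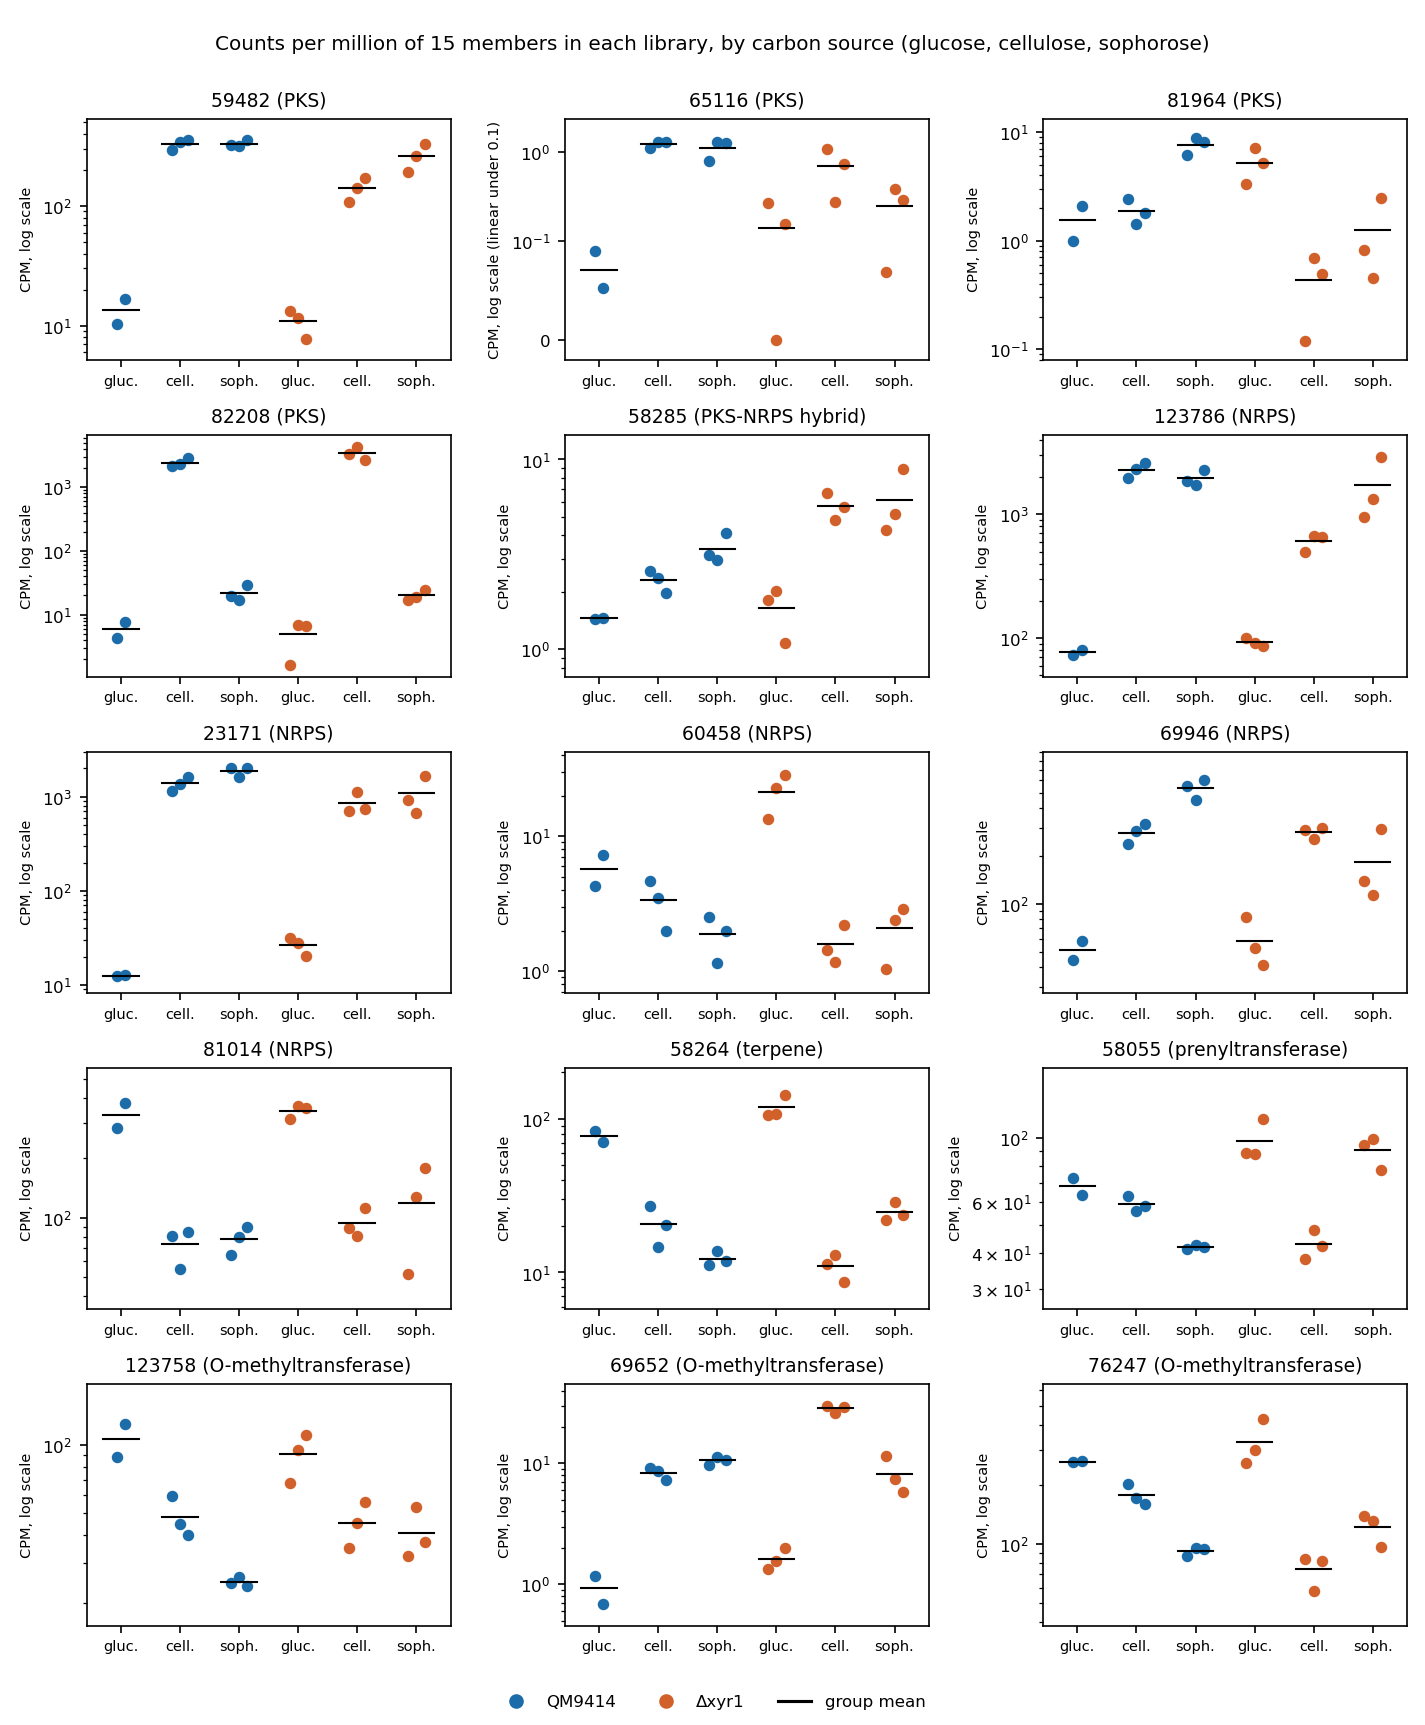
Level of the 15 members with the largest called differences between strains or against glucose in every library (y axis, CPM on a log scale, each panel with its own range), by carbon source and strain. Points are libraries and lines are group means. 82208 lies between 2133 and 4349 CPM in the 6 cellulose libraries and does not exceed 29.1 CPM in the other 11.

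Cellulose against glucose in QM9414 shows which of these genes were expressed differently when the polymer replaced the sugar. In this comparison 18 of the 33 tested members were called, 15 higher and 3 lower, against 32.8% of all 8506 genes tested (19.2% higher and 13.6% lower). Here a call stands for a log2 fold change of 1 or more in size with a Benjamini-Hochberg adjusted p in edgeR no larger than 0.05. The members' median log2 fold change was 0.66, against −0.01 over all genes tested. The calls fell on 5 of 9 PKS, all higher, and on 6 of 9 NRPS, 5 of them higher. They also fell on 4 of 5 O-methyltransferases, on both genes with a terpene term, in opposite directions, on 1 of 6 prenyltransferases and on neither hybrid. The PKS 65116 and the NRPS 71005 are counted among the higher members. Both passed the filter through libraries of groups in which they are high, so their calls are a description only. The call of the terpene synthase 59597, at a log2 fold change of 1.23 ± 0.417, was lost without QM9414 cellulose replicate 1 (adjusted p = 0.0701) or glucose replicate 3 (0.209).

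The PKS 82208 had the largest difference. Its levels were 4.33 and 7.60 CPM in QM9414 in glucose, 2133, 2280 and 2898 CPM in cellulose, and 19.9, 17.2 and 29.1 CPM in sophorose. The cellulose libraries thus lay apart from all others, with a log2 fold change against glucose of 8.66 ± 0.658 (SE) and an adjusted p of 3.3e-08. In Δxyr1 the same order was seen, with 1.6, 6.88 and 6.68 CPM in glucose, 3295, 4349 and 2704 CPM in cellulose, and 17.2, 18.6 and 24.6 CPM in sophorose. The strains overlapped in each carbon source for this gene, and none of its strain comparisons was called. Sophorose lay below cellulose by a log2 fold change of −6.79 ± 0.499 in QM9414 and −7.42 ± 0.513 in Δxyr1, with adjusted p of 9.7e-08 and 2.4e-08.

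Both large NRPS genes were low in glucose and high in cellulose and sophorose alike. For 23171 the QM9414 libraries held 12.4 and 12.7 CPM in glucose, 1157, 1376 and 1613 CPM in cellulose, and 1997, 1609 and 2000 CPM in sophorose. The cellulose and sophorose libraries overlapped with each other and stood apart from those in glucose, and the log2 fold changes against glucose were 6.78 ± 0.453 and 7.22 ± 0.463, with adjusted p of 8.6e-09 and 4.3e-09. For 123786 the levels were 73.3 and 80.2 CPM in glucose, 1978, 2310 and 2570 CPM in cellulose, and 1858, 1730 and 2283 CPM in sophorose. Its log2 fold changes against glucose were 4.90 ± 0.429 and 4.67 ± 0.424, with adjusted p of 1.5e-07 and 1.7e-07. Sophorose and cellulose libraries overlapped for 123786 in QM9414.

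Among the other PKS genes, 59482 shared this pattern of low glucose levels. It stood at 10.3 and 16.7 CPM in glucose, 294, 345 and 356 CPM in cellulose, and 326, 316 and 356 CPM in sophorose in QM9414. Its log2 fold change was 4.61 ± 0.330 against glucose for cellulose and for sophorose, with adjusted p of 1.8e-08 and 1.3e-08. The PKS 65116 was rare throughout. It had 61 reads in the QM9414 cellulose libraries and 51 in sophorose against 2 in glucose, which are ratios of 18.3 (95% counting interval 4.84 to 154) and 17.1 (4.49 to 145). It passed the filter only through these cellulose and sophorose libraries, so the ratios draw on that selection. The PKS 65172 rose by 2.27 ± 0.911 on the log2 scale in cellulose, with an adjusted p of 0.0450. The call was lost when any 1 of 14 libraries was left out, some of them outside this comparison. Without QM9414 glucose replicate 1 the adjusted p of 65172 was 0.171. Without QM9414 glucose replicate 3 its log2 fold change was 3.31, with an adjusted p of 0.115.

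The NRPS 69946, annotated as a siderophore synthase, was also lowest in glucose. In QM9414 it held 44.5 and 58.2 CPM in glucose, 239, 286 and 319 CPM in cellulose, and 555, 454 and 606 CPM in sophorose. The 3 carbon sources did not overlap, and the log2 fold changes against glucose were 2.45 ± 0.377 and 3.39 ± 0.396, with adjusted p of 5.3e-05 and 2.5e-06. The NRPS 68204 rose by 3.34 ± 0.275 in cellulose and 1.87 ± 0.266 in sophorose on the log2 scale, and was lower in sophorose than in cellulose by −1.47 ± 0.210. The O-methyltransferase 5366, with 3.09 ± 0.303 and 3.46 ± 0.304, and the halogenase and O-methyltransferase 69652, with 3.24 ± 0.323 and 3.57 ± 0.322, rose in cellulose and in sophorose, and neither was called between the pair. Without QM9414 glucose replicate 3 those of 5366 were 3.68 and 4.11.

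The NRPS 81014 and the genes 58264 and 123758 fell in cellulose and in sophorose, each from a high level in glucose. The NRPS 81014 held 284 and 380 CPM in glucose in QM9414, 80.9, 54.8 and 84.6 CPM in cellulose, and 65.0, 79.7 and 89.6 CPM in sophorose. Its log2 fold changes were −2.17 ± 0.350 and −2.09 ± 0.349, with adjusted p of 8.1e-05 and 9.2e-05. The gene 58264, annotated with a question mark as an orthologue of paxU of indole-terpene synthesis, fell from 83.6 and 71.1 CPM to 27.0, 14.7 and 20.4 CPM in cellulose and to 11.2, 13.9 and 11.9 CPM in sophorose. In the tests these are log2 fold changes of −1.90 ± 0.225 and −2.65 ± 0.230, with adjusted p of 3.9e-06 and 1.1e-07. The O-methyltransferase of ubiquinone synthesis, 123758, fell from 88.8 and 123 CPM to 59.4, 44.4 and 40.1 CPM in cellulose and to 24.5, 26.1 and 23.8 CPM in sophorose. Its log2 fold changes were −1.14 ± 0.251 and −2.10 ± 0.255, with adjusted p of 0.00117 and 3.8e-06. The first was −0.90, under the fold threshold, without QM9414 glucose replicate 3.

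In sophorose against glucose, 22 members of QM9414 were called, 16 higher and 6 lower, against 38.8% of all genes tested (19.6% higher and 19.2% lower). The median log2 fold change was 0.92, against −0.02 over all genes tested. Of the PKS, 7 of 9 were higher and none lower. The higher PKS include 65116, which passed the filter only through QM9414 cellulose and sophorose libraries, so its call is a description only. The comparisons of cellulose and of sophorose share the glucose libraries, so their values are given side by side and not as support for each other. The farnesyltransferase subunit 109078 stood at 93.8 and 84.1 CPM in glucose, 194, 229 and 150 CPM in cellulose, and 375, 396 and 422 CPM in sophorose. Its 3 carbon sources did not overlap, with log2 fold changes against glucose of 1.10 ± 0.192 in cellulose and 2.16 ± 0.201 in sophorose. The latter passed with an adjusted p of 2.2e-07, and the former, with an adjusted p of 1.6e-04, dropped to a log2 fold change of 0.95 without QM9414 cellulose replicate 2. Of the other 5 tested prenyltransferases, 1 was called in sophorose, 79769, a protein described as a cytochrome c heme-lyase with homology to a prenyltransferase subunit, which fell by −1.21 ± 0.234.

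Sophorose against cellulose in QM9414 was called for 8 members, 5 higher and 3 lower, against 17.4% of all genes tested (7.17% higher and 10.2% lower). The 3 lower members were 82208, the NRPS 71005 and the NRPS 68204. The NRPS 71005 is rare, with between 2.21 and 2.72 CPM in QM9414 in cellulose and between 0 and 0.256 CPM in sophorose, or 120 reads against 6. It reached 10 reads only in the cellulose libraries of both strains and in 1 Δxyr1 sophorose library. The NRPS 71005 thus passed the filter through the carbon source in which it is high, so its test is given as a description only. Its log2 fold change was −4.08 ± 0.573, with an adjusted p of 5.1e-05, and moved to −4.96 without QM9414 sophorose replicate 2 and to −3.45 without replicate 3 of that group. Another 4 PKS were higher in sophorose than in cellulose, namely 65172 by 2.23 ± 0.515, 81964 by 2.01 ± 0.436, 65891 by 1.54 ± 0.242 and 59315 by 1.13 ± 0.264 on the log2 scale. The fifth was 109078, by 1.06 ± 0.167, which was 0.91 without QM9414 cellulose replicate 3, and 59315 was 0.98 without QM9414 sophorose replicate 3.

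**Figure D2:**
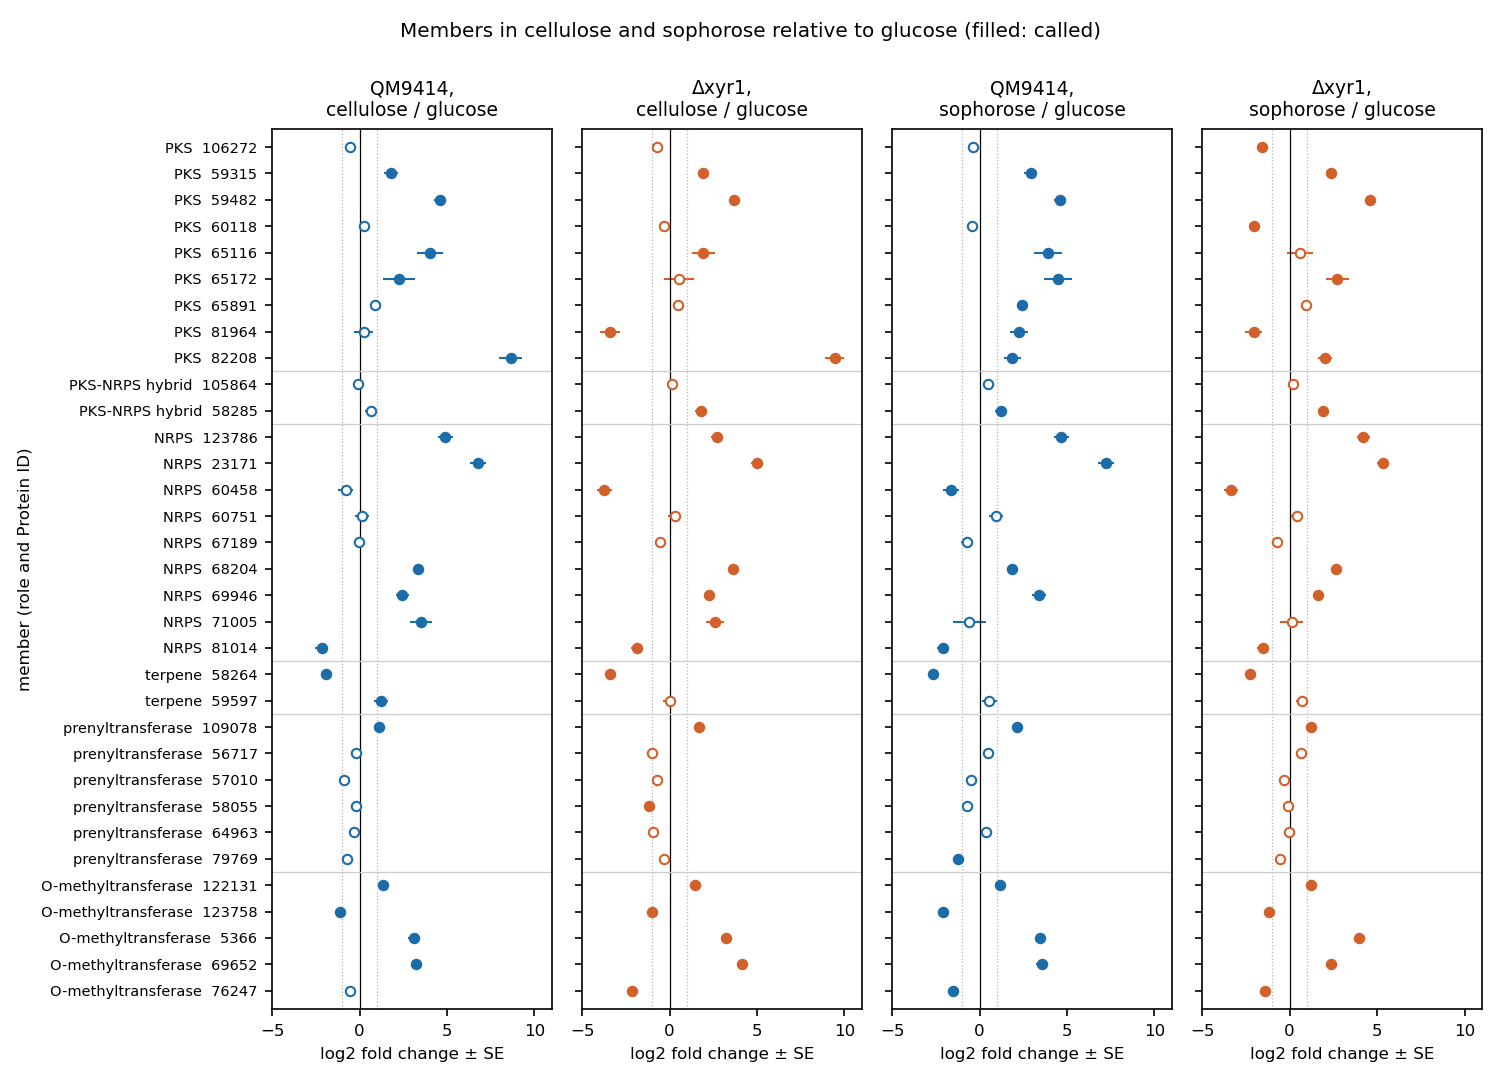
Log2 fold change (x axis, with SE) of the 33 tested members in cellulose and in sophorose against glucose, for QM9414 and Δxyr1. Members are grouped by role on the y axis, filled points were called and dotted lines mark a log2 fold change of 1 in size. 82208 is farthest to the right in both cellulose panels, at 8.66 and 9.44.

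The same comparisons within Δxyr1 show how the members stood when XYR1 was missing. Cellulose against glucose was called for 21 members, 14 higher and 7 lower, against 44.2% of all genes tested (23.0% higher and 21.2% lower). Sophorose against glucose was called for 21 members, 13 higher and 8 lower, against 36.0% of all genes tested (19.4% higher and 16.6% lower). Of the 18 members called in cellulose in QM9414, 16 were called in the same direction in Δxyr1, against 77.3% of all genes called in QM9414. Of the 22 called in sophorose, 18 were, against 68.7% of all genes called there. These groups of libraries are separate between the strains. The 16 shared calls in cellulose include 65116 and 71005, whose calls in QM9414 are a description only. The log2 fold change of 82208 in cellulose was 9.44 ± 0.562 in Δxyr1, and that of 59482 was 3.69 ± 0.267. For 23171 it was 5.00 ± 0.345 in cellulose and 5.34 ± 0.351 in sophorose, with adjusted p of 4.8e-09 and 4.0e-09.

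One member was called in opposite directions in the strains, the PKS 81964 in sophorose against glucose, at 2.24 ± 0.522 in QM9414 and −2.06 ± 0.478 in Δxyr1, as did 0.939% of all genes called there in QM9414. The first was 2.99 without QM9414 glucose replicate 3, and the second was −3.00 without Δxyr1 sophorose replicate 3. Within Δxyr1, sophorose against cellulose was called for 9 members, 5 higher and 4 lower, against 25.3% of all genes tested (13.5% higher and 11.8% lower). Among the higher ones, 123786 had a log2 fold change of 1.52 ± 0.311, which was 0.91 without Δxyr1 sophorose replicate 3. The PKS 65172 had 2.18 ± 0.638 in the same comparison, with overlapping libraries, and an adjusted p of 0.0591 without that replicate.

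The strains were compared next, Δxyr1 against QM9414 in each carbon source. In cellulose, 6 of 33 tested members were called, 2 higher and 4 lower in Δxyr1, against 18.6% of all genes tested (8.29% higher and 10.3% lower). In sophorose, again 6 were called, 2 higher and 4 lower, against 17.2% of all genes tested (10.8% higher and 6.47% lower). The members' counts are near the background in both. Their median log2 fold changes were −0.08 and −0.13, against −0.02 and 0.03 over all genes tested. In total 12 members were called in at least 1 carbon source, against 31.3% of all genes tested, and a single one, the PKS 81964, in more than 1, against 6.85% of all genes tested. The 4 lower members in sophorose, and so the 12, include the PKS 65116. It passed the filter through QM9414 libraries alone, so its strain call is a description only.

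The PKS 81964 was lower in Δxyr1 in cellulose and in sophorose. In cellulose it held 2.44, 1.43 and 1.78 CPM in QM9414 and 0.119, 0.687 and 0.489 CPM in Δxyr1, or 98 reads against 17. The log2 fold change was −1.99 ± 0.612 with an adjusted p of 0.0169, which became 0.0606 without QM9414 cellulose replicate 1 and 0.0589 without Δxyr1 cellulose replicate 1. In sophorose it held 6.13, 8.82 and 8.09 CPM in QM9414 and 0.826, 0.449 and 2.45 CPM in Δxyr1, at −2.65 ± 0.468 on the log2 scale and an adjusted p of 4.0e-04. Without Δxyr1 sophorose replicate 3, the highest of its group, the log2 fold change was −3.60 and the adjusted p 4.7e-05. In glucose it was 0.993 and 2.10 CPM in QM9414 and 3.31, 7.08 and 5.22 CPM in Δxyr1, the other way round, at a log2 fold change of 1.66 ± 0.527 and an adjusted p of 0.0713. Its strain effect in sophorose differed from that in glucose by −4.30 ± 0.709 in the interaction test, with an adjusted p of 0.00106. That difference was −5.27 without Δxyr1 sophorose replicate 3 and −5.01 without QM9414 glucose replicate 3.

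The NRPS 123786 was the large NRPS called between the strains in cellulose. Its QM9414 levels of 1978, 2310 and 2570 CPM stood against 493, 665 and 654 CPM in Δxyr1, without overlap, at a log2 fold change of −1.92 ± 0.315 and an adjusted p of 1.8e-04. In sophorose the Δxyr1 libraries held 957, 1338 and 2888 CPM, on both sides of the QM9414 libraries, and the difference of −0.18 ± 0.304 was not called. Without replicate 3, the highest, it was −0.78 with an adjusted p of 0.00766, under the fold threshold. In glucose, with 99.9, 91.8 and 86.5 CPM in Δxyr1, it was not called either. The strain effect in cellulose was lower than that in sophorose by −1.74 ± 0.433, with an adjusted p of 0.00448, and by −1.08 with an adjusted p of 0.00575 without Δxyr1 sophorose replicate 3. The strain effects of 23171 came to −0.69 ± 0.292 (cellulose), −0.78 ± 0.292 (sophorose) and 1.10 ± 0.345 (glucose), with adjusted p of 0.0719, 0.0395 and 0.0685, and none was called. Its libraries did not overlap between the strains in cellulose and in glucose, and overlapped in sophorose. Without Δxyr1 sophorose replicate 3, 23171 was called in sophorose and in glucose.

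Among the other calls in cellulose, 59482 was lower in Δxyr1. It held 108, 142 and 172 CPM there, all under the QM9414 libraries, at a log2 fold change of −1.24 ± 0.239 and an adjusted p of 7.3e-04. The O-methyltransferase family protein 76247 held 200, 171 and 159 CPM in QM9414 and 83.8, 57.7 and 81.7 CPM in Δxyr1, at −1.25 ± 0.198 and an adjusted p of 1.4e-04. In sophorose its direction turned, with 87.0, 95.4 and 93.9 CPM in QM9414 and 138, 131 and 96.7 CPM in Δxyr1, but the difference there was not called. In glucose it stood higher in both strains, at 260 and 262 CPM in QM9414 and 256, 299 and 429 CPM in Δxyr1.

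Higher in Δxyr1 in cellulose were 2 members. The halogenase and O-methyltransferase 69652 held 9.19, 8.65 and 7.32 CPM in QM9414 and 30.0, 26.3 and 29.1 CPM in Δxyr1, at a log2 fold change of 1.76 ± 0.214 and an adjusted p of 1.0e-05. In sophorose its levels of 9.66, 11.4 and 10.7 CPM in QM9414 overlapped with 11.4, 7.44 and 5.84 CPM in Δxyr1, and the strain effects in cellulose and sophorose differed by 2.12 ± 0.303, with an adjusted p of 6.1e-05. In RefSeq order 69652 is the second gene after the PKS 81964, with the glyoxylase gene 69625 between them, and the 2 members moved in opposite directions in cellulose. The hybrid 58285 held 2.58, 2.36 and 1.97 CPM in QM9414 and 6.64, 4.81 and 5.62 CPM in Δxyr1, at 1.29 ± 0.281 and an adjusted p of 0.00190. The other hybrid, 105864, was called in none of the 9 comparisons between groups and stayed between 7.68 and 17.2 CPM. Its gene spans 1466 bp, against 12156 bp for 58285.

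In sophorose, 3 further members were lower in Δxyr1. The siderophore synthase 69946 held 555, 454 and 606 CPM in QM9414 and 140, 113 and 297 CPM in Δxyr1, at a log2 fold change of −1.56 ± 0.311 and an adjusted p of 0.00101. Without replicate 3 of Δxyr1, the highest of the group, these were −2.11 and 2.4e-05. In cellulose its levels of 292, 257 and 299 CPM in Δxyr1 were mixed with those of QM9414, and the strain effect there was 0.01 ± 0.305. The PKS 65116 held 0.785, 1.28 and 1.26 CPM in QM9414 in sophorose and 0.0688, 0.385 and 0.288 CPM in Δxyr1, or 51 reads against 11, at −2.13 ± 0.526 and an adjusted p of 0.00428. It reached 10 reads only in the QM9414 cellulose and sophorose libraries, the groups in which it is high. The PKS 65116 thus passed the filter through QM9414 alone, and its strain call is given as a description only. The PKS 65891 held between 44.0 and 63.5 CPM in QM9414 and between 17.8 and 36.7 CPM in Δxyr1, at −1.06 ± 0.239, and dropped under the fold threshold without QM9414 sophorose replicate 3 (−0.93), Δxyr1 sophorose replicate 1 (−0.85) or replicate 2 (−0.99).

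Higher in Δxyr1 in sophorose were 2 members as well. The UbiA prenyltransferase 58055, related to the yeast enzyme that attaches the isoprenoid tail in ubiquinone synthesis, held 41.4, 42.4 and 42.1 CPM in QM9414 and 94.9, 99.6 and 77.4 CPM in Δxyr1. The log2 fold change was 1.11 ± 0.137, with an adjusted p of 2.1e-05. The gene 58264 held 11.2, 13.9 and 11.9 CPM in QM9414 and 22.0, 28.6 and 23.7 CPM in Δxyr1, without overlap. Its log2 fold change of 1.01 ± 0.211 was at the threshold. It was 0.98 in DESeq2, 0.95 and 0.98 without QM9414 sophorose replicate 1 or 3, and 0.89 without Δxyr1 sophorose replicate 2. In cellulose 58264 went the other way, with 11.4, 13.0 and 8.64 CPM in Δxyr1 all under the QM9414 libraries, a difference that was not called, and the strain effects differed by −1.92 ± 0.301 with an adjusted p of 1.3e-04.

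Leaving out Δxyr1 sophorose replicate 3 raised the number of members called in sophorose from 6 to 9, and leaving out replicate 2 of that group lowered it to 4. The 3 members added without replicate 3 were 23171, 60118 and 65172. The PKS 81964, the NRPS 69946 and the prenyltransferase 58055 were called in each of these fits. So was the PKS 65116, which passed the filter only through QM9414 libraries.

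In glucose, 1 member was called between the strains, against 2.60% of all genes tested (1.88% higher and 0.717% lower). The NRPS 60458 held 4.24 and 7.29 CPM in QM9414 and 13.4, 22.7 and 28.3 CPM in Δxyr1, at a log2 fold change of 1.87 ± 0.434 and an adjusted p of 0.0223. The call did not hold without QM9414 glucose replicate 1 (adjusted p = 0.239), without Δxyr1 glucose replicate 2 (0.0515), in which a single gene took 18.4% of reads, or replicate 3 (0.0850), or in a fit of the glucose libraries alone (0.126). DESeq2 called 3 members in glucose, 60458, 23171 and 81964. The end of 60458 and the start of the next gene, 121491, lie 15 bp apart in RefSeq, and the sources used here do not say whether reads were counted by strand.

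**Figure D3:**
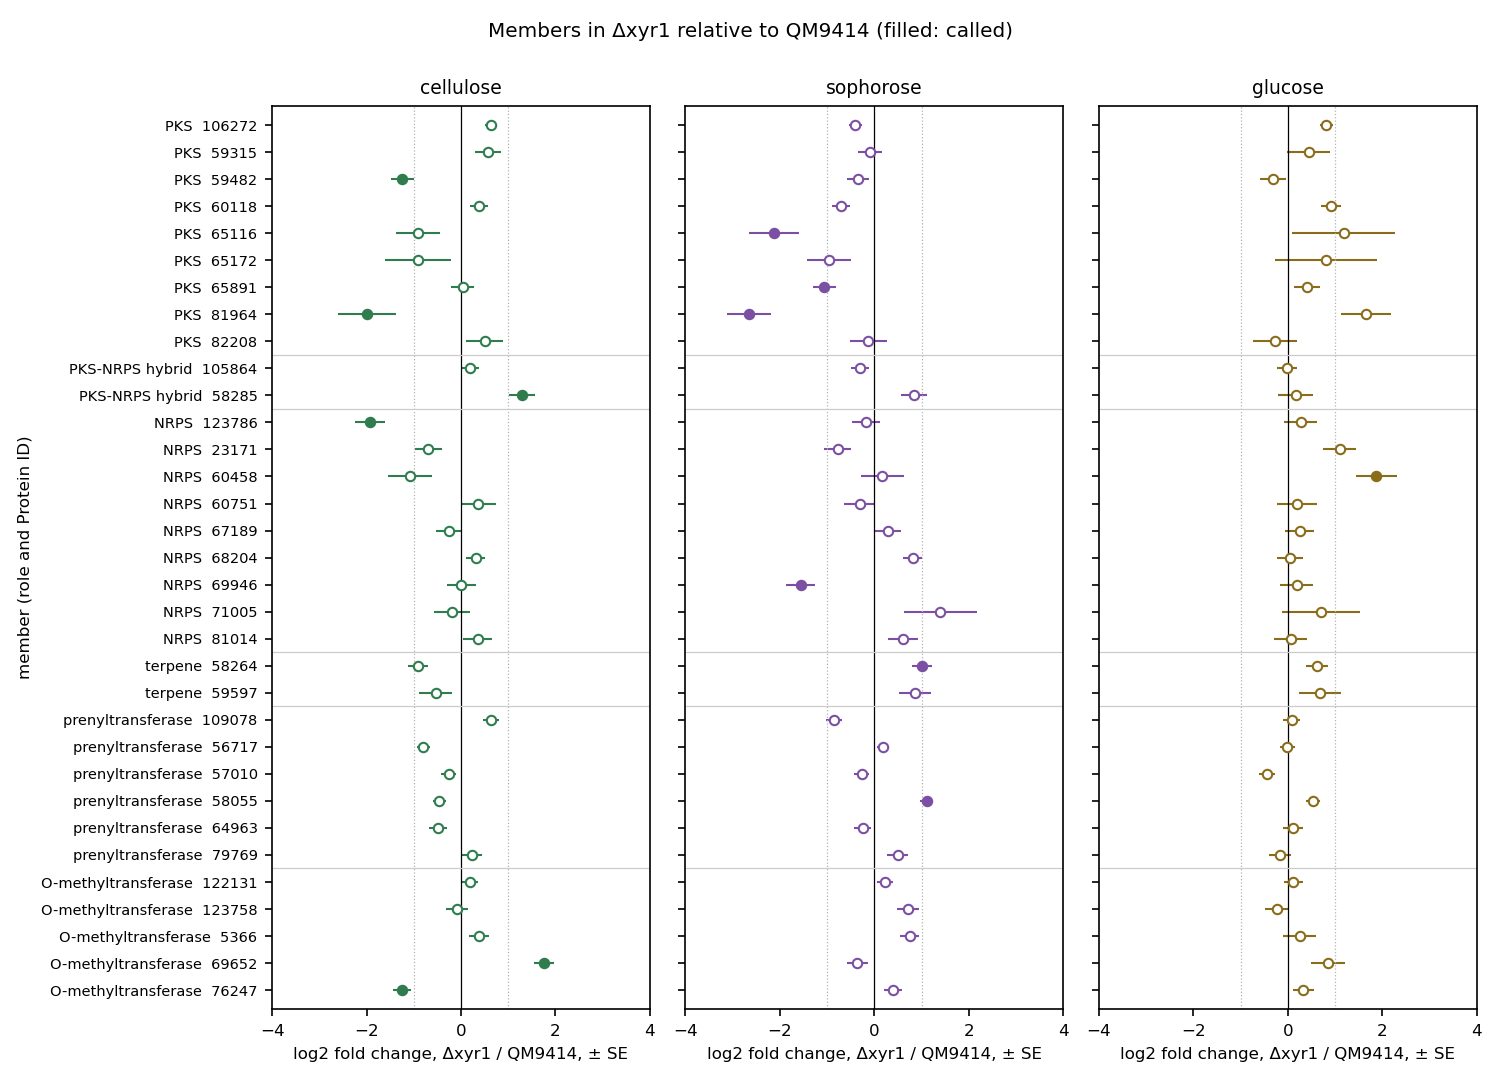
Log2 fold change of Δxyr1 against QM9414 (x axis, with SE) for the 33 tested members in cellulose, sophorose and glucose, grouped by role on the y axis. Filled points were called, 6 in cellulose, 6 in sophorose and 1 in glucose, and 81964 is the lowest point in the first and second panel.

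The interaction tests compared the strain effects between carbon sources. Cellulose against sophorose was called for 11 members, 6 with a higher and 5 with a lower strain effect in cellulose, against 28.6% of all genes tested (11.8% higher and 16.8% lower). Cellulose against glucose was called for 6 members, with a lower strain effect in cellulose in all 6, against 19.1% of all genes tested (7.87% higher and 11.3% lower). Sophorose against glucose was called for 6 members, with a lower strain effect in sophorose in all 6, against 12.0% of all genes tested (6.54% higher and 5.48% lower). Both comparisons with glucose subtract the same strain effect in glucose, so their counts are not support for each other. The members 81964 and 23171 were called in both. The PKS 106272 and 60118 are among those called in sophorose against glucose. The mean level of 60118 in Δxyr1 was 181 ± 20.7 CPM in glucose and 43.8 ± 16.6 CPM in sophorose (SD, n = 3), against 95.4 ± 1.70 (n = 2) and 71.0 ± 1.65 CPM (n = 3) in QM9414. For 106272 the levels were 130 ± 25.7 and 42.6 ± 3.92 CPM in Δxyr1 and 73.4 ± 4.73 and 56.0 ± 2.52 CPM in QM9414.

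Genes whose annotation holds terms for the supply or regulation of these pathways were listed. The lae1 gene (41617) encodes a putative methyltransferase, whose relative LaeA is known in Aspergillus as a global regulator of secondary metabolism. It stood at 15.9 ± 0.556 CPM in glucose (n = 2), 84.1 ± 3.28 CPM in cellulose and 37.6 ± 1.97 CPM in sophorose (n = 3 each) in QM9414. The log2 fold changes against glucose were 2.41 ± 0.166 and 1.24 ± 0.159. In Δxyr1 in cellulose it stood at 37.4 ± 4.01 CPM, lower than in QM9414 by −1.17 ± 0.135 on the log2 scale, with an adjusted p of 6.4e-06. In sophorose and glucose lae1 was not called between the strains. The velvet gene vel1 (122284) was called in none of the strain comparisons, nor between carbon sources in QM9414.

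Of 2 phosphopantetheinyl transferase genes, which activate the carrier domains, 1 rose from glucose to cellulose in QM9414, 41504 at 1.07 ± 0.229, and neither was called between the strains. All 3 genes matching terms for polyketide precursors were called in sophorose against glucose in QM9414, against 38.8% of all genes tested. These terms read words and not pathways, and only the first gene named next makes malonyl-CoA. Acetyl-CoA carboxylase (81110), which makes malonyl-CoA, was lower by −1.48 ± 0.350 and a fatty acid synthase subunit (78591) by −1.34 ± 0.331. The gene 64345, described as a methylcrotonyl-CoA carboxylase subunit, was higher by 2.04 ± 0.284. It was also the 1 gene of the 3 called between the strains, higher in Δxyr1 in cellulose by 1.23 ± 0.236. None of the 3 was called in cellulose against glucose in QM9414. A list of 15 genes was matched by isoprenoid and sterol words. It also holds genes outside that synthesis, such as the peroxin Pex19 (122431), a Rab escort protein (119879) and subunits of protein prenylating enzymes (22093 and 58654). Of the 15 genes, 1 was called between the strains in cellulose and in sophorose, against 18.6 and 17.2% of all genes tested, and none in glucose, against 2.60%. It is 79741, described as an ER-bound farnesyl-diphosphate farnesyltransferase. The gene described as squalene synthase, 122653, was not called, at −0.59 ± 0.0986 in cellulose and 0.42 ± 0.0981 in sophorose. The level of 79741 fell from 1240 ± 67.7 to 47.2 ± 3.25 CPM in cellulose and from 748 ± 120 to 153 ± 12.4 CPM in sophorose (SD, n = 3). The log2 fold changes were −4.71 ± 0.220 and −2.28 ± 0.197, with adjusted p of 5.4e-10 and 6.7e-07. In glucose it stood at 991 ± 161 CPM in QM9414 (n = 2) and 759 ± 180 CPM in Δxyr1 (n = 3). Neither gene with a terpene term was called lower in Δxyr1 in any carbon source.

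Genes next to a member were read from the order of genes in RefSeq, up to 3 on each side with gaps of at most 10 kb, for the PKS, NRPS, hybrid and terpene members. In QM9414 in cellulose against glucose, the higher members had 46 tested neighbours, 19 of them higher and 5 lower, against 19.2 and 13.6% of all genes tested. Between the strains in cellulose, the 3 lower members had 15 tested neighbours, 6 lower and 3 higher, against 10.3 and 8.29%. In sophorose the 4 lower members had 17 tested neighbours, of which 4 were higher and 0 lower, against 10.8 and 6.47%, so there no neighbour was called in the direction of its member. The neighbours described next were picked for their values. The first and second gene after 82208 had its pattern. The unknown protein 52476 stood at 345 ± 81.0 CPM in QM9414 in cellulose (n = 3), 1.07 ± 0.0247 CPM in glucose (n = 2) and 21.5 ± 2.95 CPM in sophorose (n = 3). The multicopper oxidase 124079 stood at 611 ± 109, 1.36 ± 1.04 and 2.60 ± 1.04 CPM in the same groups. Their log2 fold changes in cellulose against glucose were 8.33 ± 0.661 and 8.70 ± 0.913, and neither was called between the strains in any carbon source. In Δxyr1 glucose replicate 1, where 82208 was lowest at 1.6 CPM, both genes had 0 reads. The first and second gene before 82208 were not called in cellulose against glucose.

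The genes after the NRPS 71005 are a siderophore biosynthesis esterase (112590), an ABC transporter (71010) and the acetyltransferase SidF (82628), named after an enzyme of siderophore synthesis in Aspergillus. In QM9414 in sophorose these had 0, 2 and 1 reads over the 3 libraries, against 108, 200 and 308 reads in cellulose. The level of 112590 was at least 32.2-fold higher in cellulose, set against 3 reads over the sophorose group. For 71010 the ratio was 89.5 (95% counting interval 24.5 to 744) and for 82628 it was 276 (49.1 to 10900). The gene 82628 reached 10 reads only in cellulose libraries, and 112590 only there and in 1 Δxyr1 glucose library. Both thus passed the filter through the carbon source in which they are high, so their values are given as a description only. On the other side of 71005, the unique protein 70972 was likewise lower in sophorose than in cellulose in QM9414, by −3.20 on the log2 scale. In Δxyr1 the libraries of 70972 overlapped, at 12.1, 8.86 and 8.15 CPM in cellulose and 9.71, 9.11 and 4.68 CPM in sophorose. Those of 112590, 71010 and 82628 were lower in sophorose there too, without overlap. In Δxyr1 in cellulose 71010 was itself low, between 0.71 and 0.98 CPM, against 3.1 to 4.9 CPM in QM9414. In QM9414 in glucose 71010 was not low, at 5.66 ± 0.809 CPM (n = 2), whereas 112590 and 82628 had 8 and 3 reads. All 5 genes in the list of siderophore and toxin terms were lower in sophorose than in cellulose in QM9414, against 10.2% of all genes tested. That list holds 112590, so its count is not separate from the neighbours just described and draws in part on the same selection. In sophorose 4 of them were higher in Δxyr1 than in QM9414, against 10.8% of all genes tested. One of the 4 is 112590, on 5 reads against 0, and another the transporter 71008, on 12 against 2. The siderophore synthase 69946, by contrast, was not called between sophorose and cellulose in QM9414 and was lower in Δxyr1 in sophorose.

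**Figure D4:**
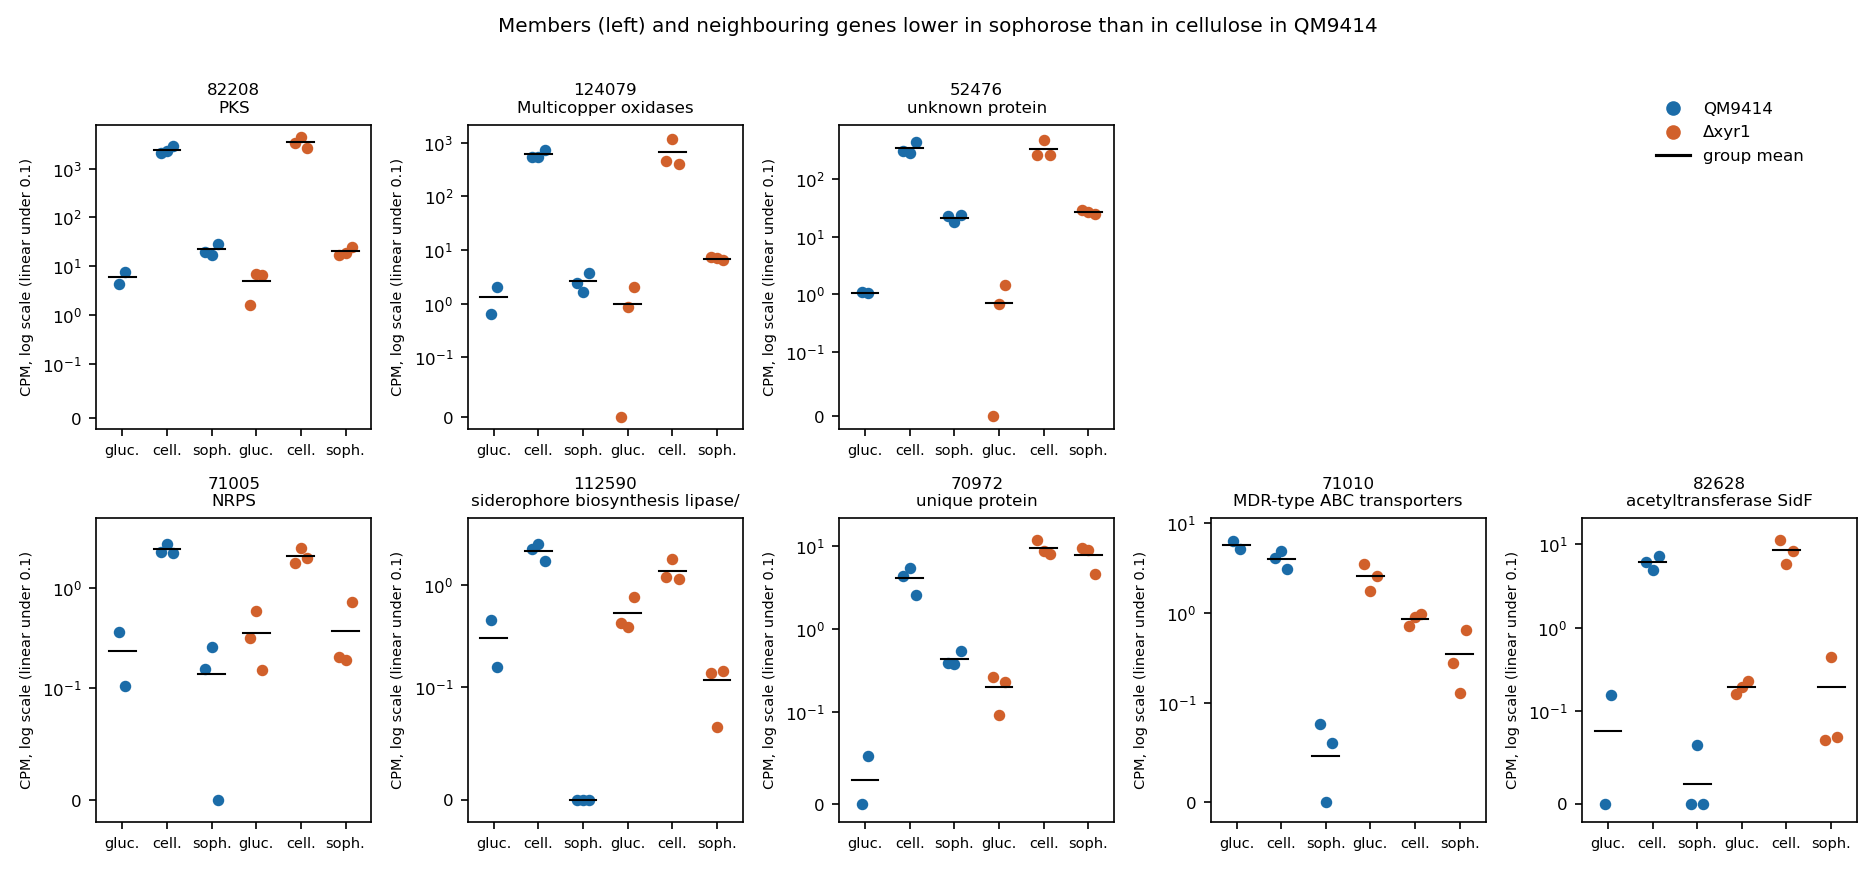
Level of the PKS 82208 with 2 neighbouring genes (top) and of the NRPS 71005 with 4 neighbouring genes (bottom) in every library, by carbon source and strain (y axis, CPM on a log scale, linear under 0.1), for neighbours called lower in sophorose than in cellulose in QM9414. Lines are group means. The top 3 genes are high in cellulose in both strains, and 112590 has 0 reads in all 3 QM9414 sophorose libraries.

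Next to 59482, the unknown protein 59368 and the glycosyltransferase 105924 also rose from glucose to cellulose in QM9414, by 7.89 ± 0.592 and 3.70 ± 0.359 on the log2 scale. Between the strains in cellulose they parted. The protein 59368 fell from 66.4 ± 4.68 to 24.4 ± 7.39 CPM in Δxyr1 as 59482 did, while 105924 rose from 14.6 ± 1.90 to 43.2 ± 4.15 CPM (SD, n = 3). The 3 genes after the NRPS 123786, for an RTA1-like protein (68803), an alcohol dehydrogenase (123787) and a short-chain dehydrogenase (68755), were lower in Δxyr1 in cellulose as 123786 was, with log2 fold changes of −2.43, −1.97 and −2.36. None of the 3 rose in cellulose against glucose in QM9414, where 123786 did.

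Of the tested members, 5 were called in none of the 9 comparisons between groups, against 32.7% of all genes tested. They are the NRPS 60751 and 67189, the hybrid 105864, the protein prenyltransferase alpha subunit 64963 and the prenyltransferase and squalene oxidase 57010. By contrast, 14 members were called in all 4 comparisons of cellulose or sophorose with glucose, against 18.6% of all genes tested. Within each strain these comparisons share their glucose libraries. These include 82208, 59482 and 59315 among the PKS and 123786, 23171, 68204, 69946 and 81014 among the NRPS.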

How the data were processed

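RNA was sequenced as 100 bp paired-end reads on an Illumina HiSeq 2000. The authors aligned the reads to the Trichoderma reesei 2.0 genome with TopHat2 2.0.4, allowing 2 mismatches and keeping unique alignments, and deposited raw counts per gene from HTSeq 0.6.0. The submitters' notes also name SAMtools 0.1.19 and DESeq2 1.6.3. The authors' fold changes and p-values, and their normalized table, were not used.

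The counts of 17 libraries were fitted in R 4.3.3 with edgeR 4.0.16 (quasi-likelihood test, TMM factors, 1 fit over 6 groups, 12 comparisons), and p-values were adjusted by Benjamini-Hochberg over the 8506 genes with at least 10 reads in at least 2 libraries. Standard errors come from the fold change and the F statistic. CPM use TMM factors. Reads without molecular identifiers are not independent molecules, so counting intervals cover counting error only. Lengths and gene order are from RefSeq, all 34 members matched, and no sequence is shown. Levels are per gene span, introns included, where coding length had been planned.

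Members and lists were chosen with earlier results of these data known. Full values are given for up to 3 members with the largest called fold change in each direction in each strain comparison and in QM9414 against glucose, and for the highest member per kb in each role. The full values of 59482 in cellulose against glucose, 69946 and 69652 outside their strain comparisons, and the neighbouring genes named were chosen after values were seen. The fits were tested on simulated data. Alternatives were DESeq2 1.42.0, RLE and upper-quartile factors, no filter, at least 1 CPM in 3 libraries, the compared groups alone, a replicate block, no fold threshold and each library left out. Leaving out QM9414 cellulose replicate 1 and Δxyr1 sophorose replicate 3 together was added after seeing the data.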

Additional observations from a re-analysis of the deposited data

Results flagged for a closer look

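The strain effect, Δxyr1 against QM9414 on the log2 scale, differed between carbon sources for the following members in edgeR's interaction test. These are differences of strain effects, adjusted over all genes tested. In cellulose minus sophorose the difference was −1.92 for 58264 (adjusted p = 1.3e-04), −1.74 for 123786 (0.00448), −1.65 for 76247 (2.4e-04), −1.57 for the prenyltransferase 58055 (1.6e-05) and −1.38 for the terpene synthase 59597 (0.0313), so these stood lower in Δxyr1 in cellulose relative to sophorose. It was 1.03 for the PKS 106272 (4.2e-04), 1.08 for the PKS 60118 (0.00431), 1.10 for the PKS 65891 (0.0168), 1.49 for the farnesyltransferase subunit 109078 (1.4e-04), 1.56 for the siderophore synthase 69946 (0.00879) and 2.12 for 69652 (6.1e-05).

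In cellulose minus glucose the difference was −3.65 for the PKS 81964 (adjusted p = 0.00346), −2.95 for the NRPS 60458 (0.00262), −2.19 for 123786 (0.00279), −1.79 for 23171 (0.00802), −1.58 for 76247 (0.00110) and −1.53 for 58264 (0.00204). In sophorose minus glucose it was −4.30 for 81964 (0.00106), −1.88 for 23171 (0.0110), −1.75 for 69946 (0.0186), −1.62 for 60118 (0.00177), −1.47 for 65891 (0.0141) and −1.22 for 106272 (9.3e-04). Single libraries decided several of these. The call of 59597 was lost when any one of 8 libraries was left out, among them Δxyr1 sophorose replicate 3 (−1.15, adjusted p = 0.0734). In cellulose minus sophorose, 106272, 60118 and 65891 dropped under the fold threshold without Δxyr1 sophorose replicate 1, to 0.98, 0.91 and 0.89. The other libraries that ended these calls were QM9414 sophorose replicate 3 (106272 at 1.00, just under the threshold before rounding, and 65891 at 0.96), Δxyr1 cellulose replicate 3 (106272 at 0.98) and Δxyr1 sophorose replicate 2 (60118 at 0.96). In sophorose minus glucose, 65891 and 69946 lost their calls without QM9414 glucose replicate 1 (adjusted p = 0.0718 and 0.0916). Without Δxyr1 sophorose replicate 3, 123786 was −1.08 and 69946 was 2.17 in cellulose minus sophorose, and 81964 was −5.27 in sophorose minus glucose. Without QM9414 glucose replicate 3, 81964 was −4.33 in cellulose minus glucose and −5.01 in sophorose minus glucose. Both sets of differences against glucose share the strain effect in glucose. In cellulose the strains were also harvested at different times, which cannot be told apart from strain.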

How the results depend on the processing

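Of 135 calls of a member in a comparison, 112 were kept in every setting and none changed sign. Most of the counts of members called stayed within 1.5 times under every alternative. Without a fold threshold the counts were 11 in strain in cellulose, 14 in sophorose and 3 in glucose, and 17 in sophorose against cellulose in QM9414 and likewise 17 in Δxyr1, since that setting drops a criterion. For the strains in glucose, the count of 1 became 3 in DESeq2, 0 in a fit of the compared groups alone, where edgeR had fewer libraries to estimate the spread, and 3 with QM9414 cellulose replicate 1 and Δxyr1 sophorose replicate 3 left out together, and leaving out 1 library gave between 0 and 3. The count was 0 without QM9414 glucose replicate 1 or Δxyr1 glucose replicate 3. Leaving out 1 library gave between 5 and 7 calls for the strains in cellulose and between 4 and 9 in sophorose. Upper-quartile factors shifted the all-gene median by 0.11 on the log2 scale between the strains in cellulose.

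With a replicate block the count of members called was the same in all 12 comparisons, 6, 6 and 1 for the strains. Same-numbered libraries had correlations between −0.208 and 0.29, with 10 of 24 over 0.1, so the numbers were not taken to pair them. Members such as 65116 and 71005 with few reads limit what could be detected.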
